A study of Mus musculus with 17 samples.

Results

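Cells of the lens hold to their neighbours through cadherins, immunoglobulin-type adhesion proteins and the ephrin system, and 10 genes of these groups are described here: Cdh1, Cdh2, Ctnna1, Nrcam, Ncam1, Jam3, Epha2, Efna5, Dlg1 and Scrib. They were chosen by name among 21951 protein-coding genes of the GENCODE M21 annotation of the mouse assembly GRCm38 (mm10), and all 10 were found. For each gene, every H3.3 island that touched the gene body or the 5 kb on either side of it was taken from 4 libraries. An island is a stretch of the genome in which the authors' caller found more ChIP reads than background, and H3.3 is a histone H3 variant that is deposited outside of DNA replication and is known from transcribed genes and regulatory regions.

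The libraries were made with an anti-H3.3 antibody from chromatin of newborn CD1 mice, a strain given in the labels with no mutation or treatment. Lenses were microdissected into epithelium, the single layer that covers the front of the lens, and fibers, the elongated cells that fill it, with 2 biological replicates of each. The titles give P1 and the protocol gives P0.5 for the same animals, and each sample pooled 150 lenses. In such pooled tissue, more cells with H3.3 at a gene and more H3.3 per cell cannot be told apart.

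In the lens, the epithelium is known for E-cadherin, the product of Cdh1, and fibers for N-cadherin, the product of Cdh2, joined to actin through catenins. Fibers also carry N-CAM, NrCAM and junctional adhesion molecules along their long sides, where hexagonal packing depends on the receptor EphA2, and ephrin-A5 is known for its part in the shape of lens cells. Dlg1 and Scrib encode scaffold proteins that mark the basal and lateral side of epithelial cells. The question was whether H3.3 islands at Cdh1, the gene of the epithelium, were arranged otherwise than at the adhesion genes of fibers.

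The deposited lists held 10389 and 14434 islands in the epithelium libraries and 27059 and 35940 in the fiber libraries, with 1331369 to 1430373 reads in islands in epithelium and 5041885 to 5359085 in fibers. Sequencing depths are not known, so a wider spread of H3.3 in fibers and a better yield of called islands in the fiber libraries cannot be told apart. Of the markers taken for lens fibers, 9 of 9 were covered more in both fiber libraries, and so were 5 of 8 markers of lens epithelium, with none covered more in epithelium, so the direction of coverage does not tell the compartments apart by their labels. Summed coverage of the 5 endothelial markers was 4.32% and 8.68% in epithelium and 20.9% and 17.4% in fibers, with Kdr, Tek and Emcn at 0 in all 4 libraries. For the 5 retinal markers the sums were 57.9% and 13.0% in epithelium and 60.4% and 28.4% in fibers, with Rpe65, Tyr and Crx at 0. For the 3 macrophage markers they were 0.0663% and 24.0% in epithelium and 55.7% and 62.7% in fibers, with Ptprc at 0. The part of these cells in the results was not tested.

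All 10 genes were covered more in fibers than in epithelium. Coverage is the percent of the window, the gene with its 5 kb flanks, that lay in islands, and a gene was counted as higher in fibers when both fiber libraries were above both epithelium libraries. The same held for 45.0% of all protein-coding genes, for 69.8% of those with an island in at least 1 library, and for 27.6% of all 55450 annotated genes. None of the 10 was higher in epithelium, where 0.670% of protein-coding genes were. The median difference, mean fiber minus mean epithelium, was 30.3 percentage points over the 10 genes and 16.0 points over all protein-coding genes with an island. The 4 libraries can be arranged in 6 ways as 2 and 2, so the exact permutation test (two-sided) cannot give a p below 0.33, which was its value for each of the 10 genes.

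**Figure D1:**
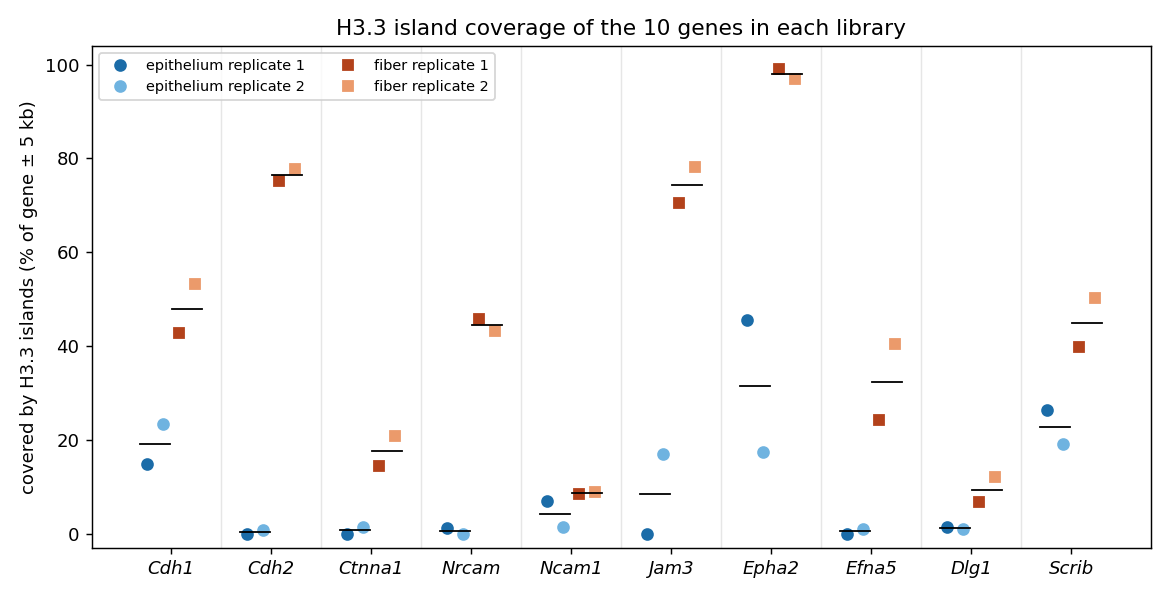
Percent of each gene and its 5 kb flanks covered by H3.3 islands (vertical axis) for the 10 genes (horizontal axis); circles are the 2 epithelium libraries, squares the 2 fiber libraries, and bars their means. Both squares lie above both circles at every gene, by 66.5 points on average at Epha2 and by 4.37 points at Ncam1.

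In fibers, coverage fell into steps. Epha2 was the most covered at 98.0% ± 1.48 (SD, n = 2), followed by Cdh2 at 76.5% ± 1.94 (SD, n = 2) and Jam3 at 74.4% ± 5.40 (SD, n = 2), which overlapped each other. Cdh1 at 47.9% ± 7.36 (SD, n = 2), Scrib at 45.0% ± 7.37 (SD, n = 2) and Nrcam at 44.5% ± 1.75 (SD, n = 2) did not differ beyond their spread. Efna5 at 32.3% ± 11.5 (SD, n = 2) overlapped Scrib but not Cdh1 or Nrcam. Ctnna1 at 17.6% ± 4.56 (SD, n = 2) lay above Dlg1 at 9.31% ± 3.76 (SD, n = 2) and Ncam1 at 8.64% ± 0.415 (SD, n = 2), and the last pair overlapped. In epithelium the order was another: Epha2 at 31.5% ± 20.02 (SD, n = 2), Scrib at 22.7% ± 5.20 (SD, n = 2) and Cdh1 at 19.1% ± 6.07 (SD, n = 2) were the most covered, with overlapping values, and Cdh2, the second in fibers, had the lowest mean at 0.391% ± 0.552 (SD, n = 2), overlapping Ctnna1, Nrcam, Efna5 and Jam3.

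Cdh1 encodes E-cadherin and lies on the plus strand at chr8:106603351-106670246, with no other annotated gene in its window. Islands covered 14.8% and 23.4% of the window in the epithelium libraries and 42.7% and 53.1% in the fiber libraries, so the gene of the epithelium was covered more in fibers in all 4 pairings of a fiber with an epithelium library. The difference was 28.8 points, with 19.3 to 38.3 points over those 4 pairings (exact permutation p = 0.33). The median difference of the other 9 genes was 31.8 points, that of Efna5 (exact permutation p = 0.33). It was 4.85 points with an equal number of islands per library by reads per kb, 12.5 points with an equal number by reads and 5.26 points when islands below the median density of their library were left out. Cdh1 minus this median was -2.99 points, between -9.71 and 3.72 over the 4 pairings (exact permutation p = 0.67), so with all islands it was within the spread of the libraries. Its direction depended on the islands kept: it was 13.2 points with an equal number by reads and 26.4 points with islands of at least median density, but -11.2 points with an equal number by reads per kb and -9.11 points over the gene body alone (exact permutation p = 0.33 for each, the smallest possible). It was 0.777 points without epithelium replicate 2.

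The compartments differed at Cdh1 in where the islands lay. In both fiber libraries an island lay over the start of the gene, 8 kb long in replicate 1 and 11 kb long in replicate 2, reaching 2.85 and 4.05 kb into the gene. No epithelium island covered the start: the nearest began 33.1 kb downstream in replicate 1 and 4.05 kb downstream in replicate 2. The 5 kb before the start were covered in full in both fiber libraries and not at all in either epithelium library. In the long second intron islands of both compartments met, and the longest of them were 7.0 and 4.2 kb in epithelium and 12.4 and 23.6 kb in fibers.

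Towards the 3′ end the order turned, with both replicates only over a stretch of 2.6 kb. Past that stretch the only island to begin was of fiber replicate 2, 4.6 kb long, over part of the last exon. That island covered 67.1% of the 5 kb after the gene, where the other libraries had 0%. The 2.6 kb stretch, chr8:106663601-106666200, lay in islands of both epithelium libraries and in no fiber island. It holds exons 12, 13 and 14 of transcript Cdh1-201 and the first bases of exon 15. Of the 5 genes with islands in both epithelium libraries, Cdh1 alone had such a stretch, and 15.2% of the 5429 protein-coding genes of that kind had one. The islands that made it were sparse, with 20.5 and 25.0 reads per kb against library medians of 28.3 and 28.1, and none of the 10 genes had such a stretch when islands below the library median were left out. With 1 epithelium library in place of both, such a stretch was more frequent at any gene. Without replicate 1 it was found at 5 of the 9 genes with an island in replicate 2, beside 3537 of 7776 protein-coding genes of that kind. Without replicate 2 it was found at 3 of the 6 genes with an island in replicate 1, beside 3118 of 6666. Over all protein-coding genes, with or without an island, the shares were 16.1% and 14.2%, against 3.76% with both. Exon 13, coding throughout, is printed as the longest exon that lies whole in this stretch, from GRCm38.p6 on the plus strand at chr8:106664186-106664433; capitals mark the 228 bases of the exon and lower case the 10 intron bases on either side. All 248 bases lay in islands of both epithelium libraries and none in an island of a fiber library.
Cdh1 exon 13: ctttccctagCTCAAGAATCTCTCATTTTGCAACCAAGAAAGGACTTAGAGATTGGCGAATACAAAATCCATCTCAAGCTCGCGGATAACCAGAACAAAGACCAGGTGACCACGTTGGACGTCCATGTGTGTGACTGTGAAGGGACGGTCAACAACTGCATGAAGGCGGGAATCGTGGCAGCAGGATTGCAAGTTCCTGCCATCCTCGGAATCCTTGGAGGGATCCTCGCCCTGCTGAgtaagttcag

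**Figure D2:**
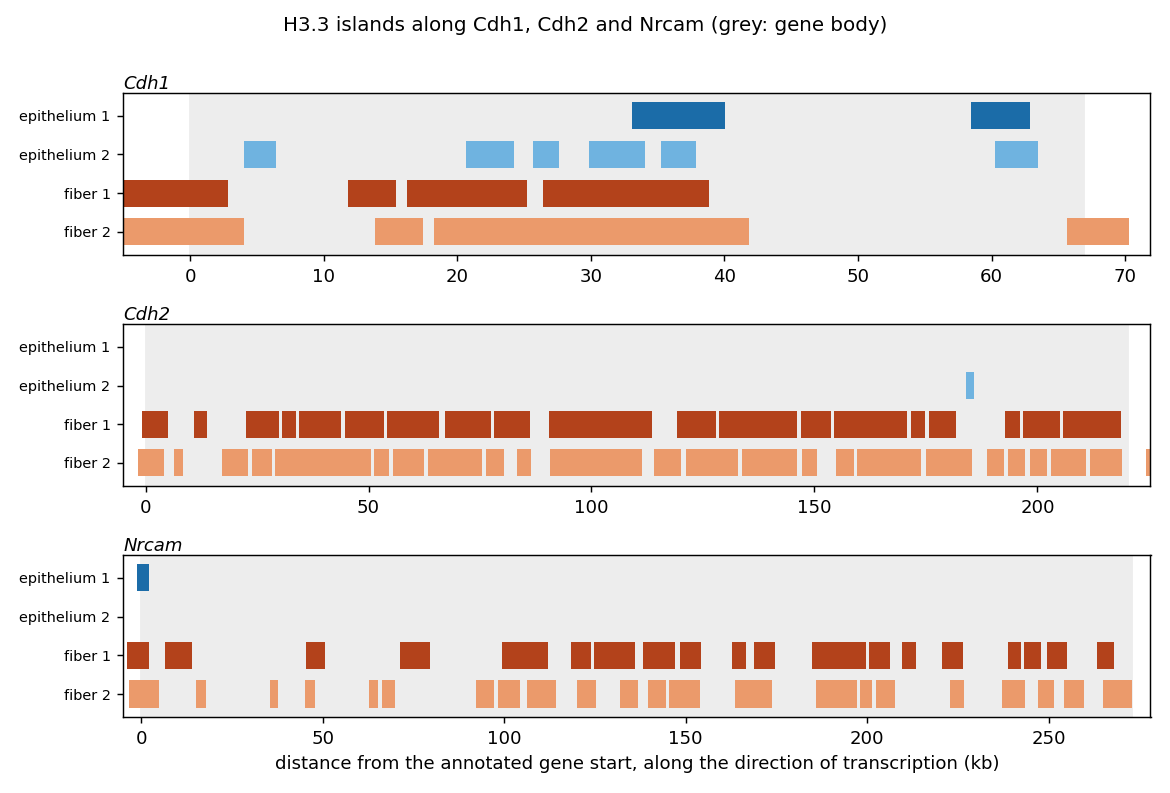
Islands of each library (coloured bars, cut at the edge of the window) along Cdh1, Cdh2 and Nrcam, by distance from the annotated gene start in kb; grey marks the gene body. At Cdh1 the fiber islands cover the start and the second intron and the epithelium islands reach the stretch at 60.25 to 62.85 kb. Fiber replicate 2 also has an island at 65.65 to 70.25 kb of Cdh1. Cdh2 and Nrcam have 1 island in 1 epithelium library and 19 to 24 islands in each fiber library.

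Cdh2, which encodes N-cadherin, showed the largest difference of the 10 genes. It lies on the minus strand of chromosome 18, from 16588877 to 16809246, and its coverage was 0% and 0.781% in epithelium and 75.1% and 77.8% in fibers, a difference of 76.1 points with no overlap. There was no island in epithelium replicate 1 and 1 island of 1.8 kb in replicate 2, against 19 and 24 islands in the fiber libraries. The fiber islands ran along the whole gene: after the first 5 kb, 77.7% and 80.1% of the body was covered, and the start itself lay in an island of 5.8 kb in both libraries. Of all bases in a fiber island, 72.1% were in islands of both replicates.

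Ctnna1 encodes alpha-E-catenin, which links cadherin complexes to actin. It lies on the plus strand of chromosome 18 from 35118859 to 35254779 and holds Lrrtm2 within its body. Coverage was 0% and 1.37% in epithelium and 14.4% and 20.8% in fibers. In fibers the first 5 kb were covered by 74.8% and 100% and the rest of the body by 11.3% and 16.7%, where an island of 6.8 kb in replicate 1 and of 6.4 kb in replicate 2 lay over Lrrtm2. The single epithelium island, 2.0 kb near the 3′ end, lay whole within fiber islands. Cdh1, Cdh2 and Ctnna1 were the 3 of the 10 genes whose start lay in islands of both fiber libraries and of no epithelium library. This was so for 15.6% of all protein-coding genes, or 3415 genes, all among the 14147 with an island in at least 1 library.

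Nrcam, an adhesion molecule of the L1 family, lies on the plus strand at chr12:44328885-44601964. Coverage was 1.20% and 0% in epithelium and 45.7% and 43.2% in fibers. The one epithelium island, of 3.4 kb, sat on the start, where fiber islands of 6.2 and 8.2 kb lay as well. Beyond the first 5 kb the body was free of islands in epithelium and covered by 46.0% and 42.6% in fibers. Although the amount was close in the 2 fiber libraries, the place was less so, since 45.7% of the bases in a fiber island were in islands of both replicates.

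Ncam1, which encodes N-CAM, lies on the minus strand at chr9:49502136-49798925 and had the smallest difference. Coverage was 7.04% and 1.499% in epithelium and 8.34% and 8.93% in fibers, 4.37 points apart, a gap about the size of the spread between the epithelium replicates (SD 3.92 points, n = 2). All 4 libraries had an island at the start or 0.125 kb inside it, and the first 5 kb were covered by 44.0% and 42.5% in epithelium and 50.5% and 74.5% in fibers. The rest of the body was covered by 6.65% and 0.754% in epithelium and 6.92% and 7.13% in fibers. Of the bases in a fiber island, 29.9% were in islands of both replicates.

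Jam3, a junctional adhesion molecule, lies on the minus strand at chr9:27097384-27155421, with the 3′ end of Ncapd3 just beyond its own. Its coverage was 0% and 17.0% in epithelium and 70.6% and 78.2% in fibers, a difference of 65.9 points with a wide spread in epithelium (SD 12.1 points, n = 2). The 5 kb after the gene's 3′ end were covered in full in both fiber libraries, by islands that also reached Ncapd3, and by 0% and 3.66% in epithelium. All 11.6 kb of epithelium islands were inside fiber islands. The start lay in an island of fiber replicate 2 alone, and in fiber replicate 1 the nearest island began 2.02 kb inside the gene.

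Epha2, the gene of the EphA2 receptor, lies on the plus strand at chr4:141301240-141329384 with no other annotated gene in its window. Coverage was 45.6% and 17.3% in epithelium and 99.1% and 97.0% in fibers. In fiber replicate 1 a single island of 44.2 kb ran over the whole gene and beyond the window, and in fiber replicate 2 an island of 39.6 kb began 0.161 kb after the start. These were longer than 99.7% and 99.8% of the islands of their libraries. In epithelium the longest islands were 5.8 and 3.6 kb, and 99.0% of the bases in epithelium islands were also in fiber islands.

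Efna5 encodes ephrin-A5, a membrane-anchored ligand of Eph receptors, on the minus strand at chr17:62604184-62881317. Coverage was 0% and 1.04% in epithelium and 24.2% and 40.5% in fibers, a difference of 31.8 points. The fiber libraries held 14 and 20 islands here, and 33.5% of the bases in a fiber island were in both replicates. Fiber replicate 2 covered the start, and the nearest island of fiber replicate 1 ended 0.484 kb before it. In epithelium there was 1 island of 3.0 kb, 224 kb inside the gene.

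**Figure D3:**
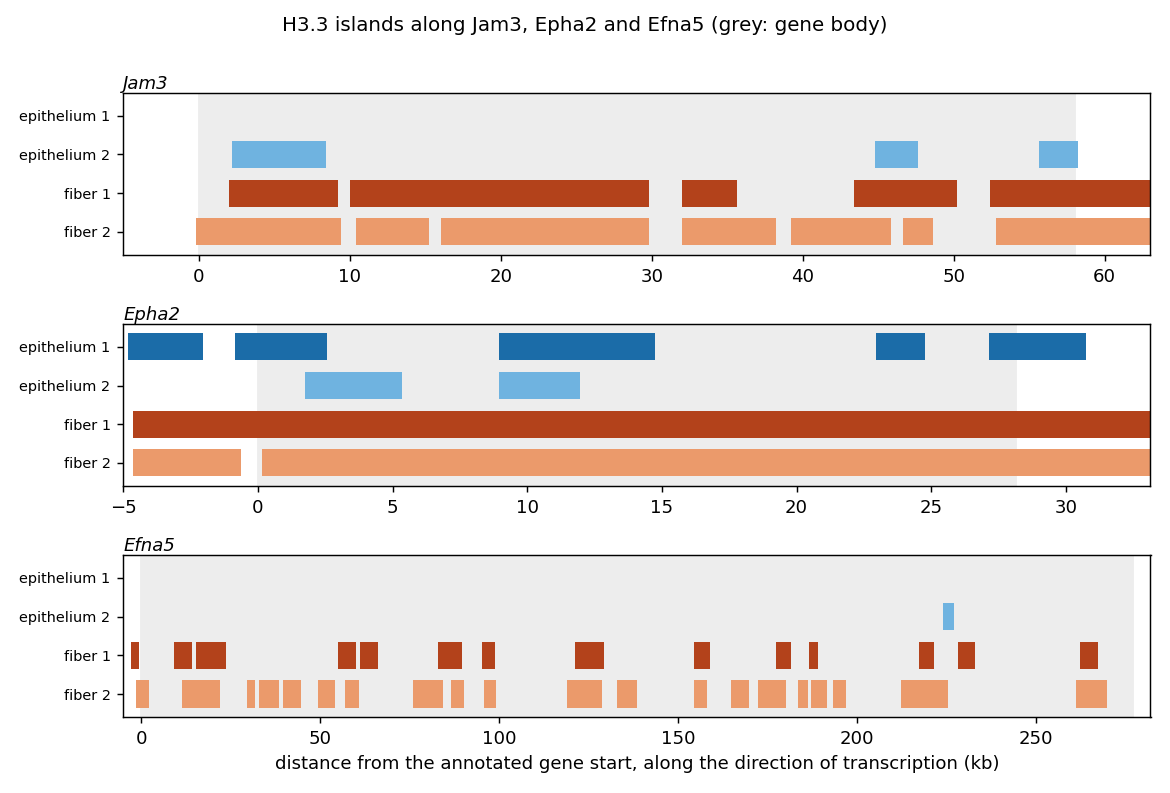
Islands of each library along Jam3, Epha2 and Efna5, by distance from the annotated gene start in kb; grey marks the gene body. Epha2 is covered almost from end to end in both fiber libraries (99.1% and 97.0%), Jam3 in long blocks, and Efna5 by 14 and 20 scattered islands.

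Dlg1, the scaffold protein SAP97, lies on the plus strand at chr16:31663443-31875129. Coverage was 1.41% and 0.902% in epithelium and 6.64% and 12.0% in fibers, low in all 4 libraries and without overlap. Part of it was not in the gene: the 3.2 kb island of epithelium replicate 1 lay whole in the 3′ flank towards Meltf, and the longest fiber islands, of 8.2 and 10.8 kb, also reached Meltf. The start was covered in epithelium replicate 2 and fiber replicate 2 by islands of 2.0 kb each, and in neither replicate 1.

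Scrib, the scaffold protein Scribble, lies on the minus strand at chr15:76047158-76069784, between Puf60 and K230010J24Rik. Coverage was 26.4% and 19.0% in epithelium and 39.8% and 50.2% in fibers. It was the one gene of the 10 whose start was in an island of every library, of 6.0 and 3.6 kb in epithelium and 19.4 and 14.4 kb in fibers. The fiber islands ran away from Scrib into Puf60, and of the first 5 kb of the gene 39.7% and 11.7% were covered in epithelium and 51.7% and 35.7% in fibers, which overlapped. The rest of the body, covered by 12.7% and 14.8% in epithelium and 12.7% and 26.3% in fibers, overlapped too. Values of the flanks did not overlap: the 5 kb downstream of Scrib were covered by 7.14% and 0% in epithelium and 63.1% and 99.1% in fibers. The flanks are mostly neighbouring genes, with 4824 bases of K230010J24Rik downstream and 4603 of Puf60 upstream.

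Over the 10 genes, the start was in an island of 3 and 3 genes in the epithelium libraries and of 7 and 9 genes in the fiber libraries, where 12.4% and 14.6% and then 36.3% and 41.5% of all protein-coding genes had such a start. All 10 genes have an island, so the nearer base is the 14147 protein-coding genes with an island in at least 1 library. Among these, 2729, 3194, 7974 and 9101 had such a start, in the same order. RefSeq promoter entries on GRCm38.p6 matched 4 of the 10 genes, and the 200 bases before the start are printed for all 4, since they differ in which libraries covered them. Capitals mark GC boxes, searched as GGGCGG and CCGCCC. The E-box letters CAGGTG and CACCTG were searched as well and were in none of the 4. Both letter sets are the motif and its reverse complement, so both strands were searched, and the 2 motifs do not overlap.
Nrcam, chr12:44328685-44328884, plus strand: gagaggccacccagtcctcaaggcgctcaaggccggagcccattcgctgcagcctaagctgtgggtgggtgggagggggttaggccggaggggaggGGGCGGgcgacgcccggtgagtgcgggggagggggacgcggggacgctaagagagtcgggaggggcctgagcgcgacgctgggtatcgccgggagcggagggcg
Epha2, chr4:141301021-141301220, plus strand: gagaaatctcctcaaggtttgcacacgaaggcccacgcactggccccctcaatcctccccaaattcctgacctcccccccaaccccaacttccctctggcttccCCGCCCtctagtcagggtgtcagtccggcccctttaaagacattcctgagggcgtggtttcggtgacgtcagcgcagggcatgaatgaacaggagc
Efna5, chr17:62881318-62881517, minus strand: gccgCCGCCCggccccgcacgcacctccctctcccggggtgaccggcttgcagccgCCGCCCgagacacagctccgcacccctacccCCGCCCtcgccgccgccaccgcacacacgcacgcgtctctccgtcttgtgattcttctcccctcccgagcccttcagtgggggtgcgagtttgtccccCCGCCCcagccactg
Dlg1, chr16:31663243-31663442, plus strand: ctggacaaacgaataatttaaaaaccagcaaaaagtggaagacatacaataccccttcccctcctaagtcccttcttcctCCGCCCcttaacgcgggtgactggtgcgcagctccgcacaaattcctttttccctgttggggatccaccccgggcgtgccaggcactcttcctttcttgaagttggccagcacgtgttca

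All 200 bases at Nrcam lay in islands of epithelium replicate 1 and both fiber libraries, those at Epha2 in islands of replicate 1 of each compartment, those at Efna5 in an island of fiber replicate 2 alone, and those at Dlg1 in islands of replicate 2 of each compartment. Efna5 held 4 GC boxes and the other genes 1 each. GC boxes were in 31.1% and the E-box in 13.9% of 32843 promoters cut to the same 200 bases. The GC content was 73.5% at Nrcam, 59.5% at Epha2, 74.0% at Efna5 and 52.5% at Dlg1, with a median of 53.0% over all promoters.

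Length and density of islands were compared at the 5 genes with an island in all 4 libraries, Cdh1, Ncam1, Epha2, Dlg1 and Scrib. The longest island was longer in both fiber libraries at 4, all but Ncam1, where this was so for 76.3% of 5246 protein-coding genes of that kind. At Dlg1 and Scrib the longest fiber islands reached beyond the window and touched a neighbouring gene, Meltf and Puf60. Reads per kb of island were higher in both fiber libraries at 2 of the 5, Cdh1 and Epha2, against 30.8% of the 5246 genes. Cdh1 islands held 23.7 and 25.9 reads per kb in epithelium and 28.5 and 26.8 in fibers, and Epha2 islands 29.3 and 27.0 in epithelium and 33.2 and 34.6 in fibers. At Dlg1 the fiber values, 27.2 and 20.9, enclosed the epithelium values of 25.6 and 26.0. Over all islands at the 10 genes the median was 26.6 and 26.5 reads per kb in epithelium and 26.7 and 25.8 in fibers, below the medians of all islands in each library. Without epithelium replicate 1, 9 genes had an island in every library kept, and the counts were 9 by length and 5 by reads per kb. Leaving out a library makes this call easier at any gene. These counts have no share over all genes beside them, so they are not read as a trait of these genes.

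**Figure D4:**
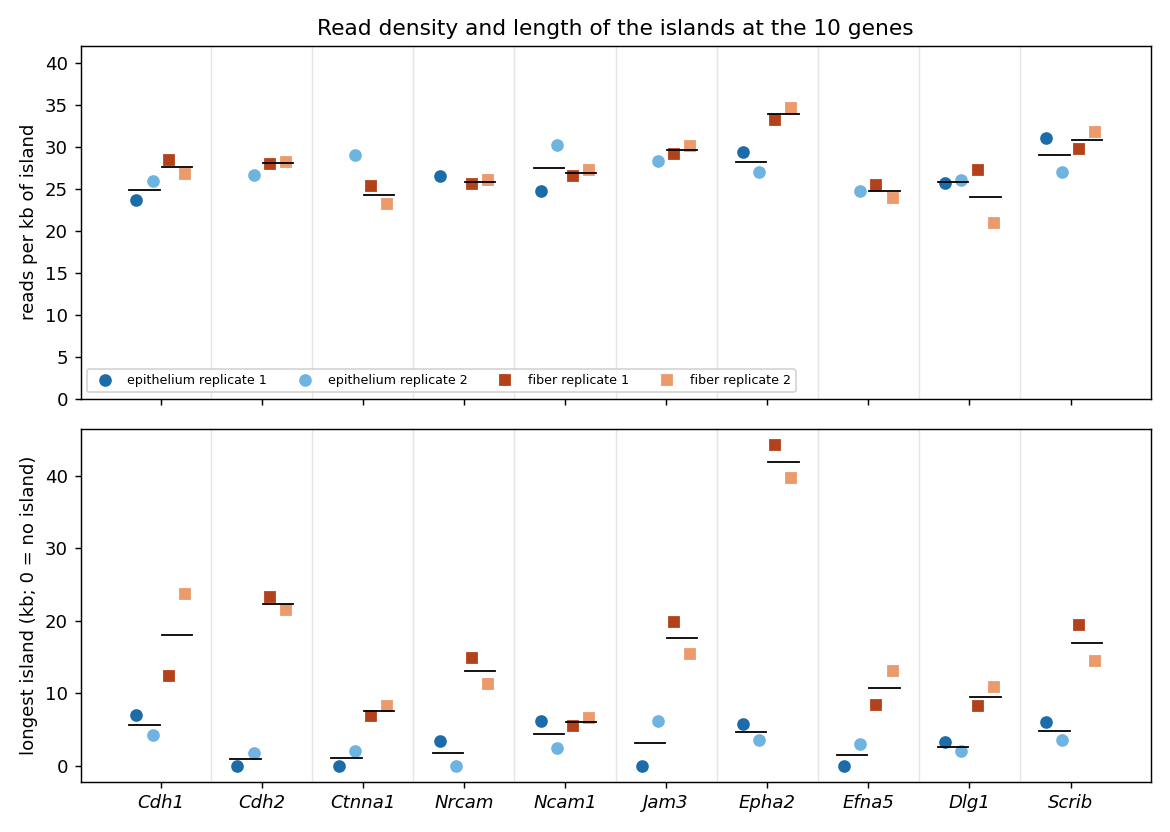
Reads per kb of island (upper panel) and length of the longest island in kb (lower panel) at each of the 10 genes; circles are epithelium libraries, squares fiber libraries, bars means, and genes with no island have no point above and 0 below. Reads per kb stay between 20.9 and 34.6 in every library, whereas the longest island reaches 44.2 kb in fibers and 7.0 kb in epithelium.

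Since the fiber lists are longer, coverage was also compared with 10389 islands, the number in the shortest list, taken from each library. With the islands of most reads, 7 of the 10 genes stayed higher in fibers, where 45.2% of protein-coding genes with an island did, and Ncam1, Dlg1 and Scrib overlapped. With the islands of most reads per kb, 4 did, Cdh2, Nrcam, Epha2 and Efna5, against 30.0% of such genes. Cdh2 was then covered by 0% and 0.781% in epithelium and 30.0% and 17.7% in fibers, and Epha2 by 45.6% and 7.86% in epithelium and 99.1% and 86.5% in fibers. At Cdh1 the choices differed in direction: its coverage was 14.8% and 14.3% in epithelium and 38.0% and 42.5% in fibers by reads, and 14.8% and 8.06% in epithelium and 10.2% and 0% in fibers by reads per kb, a difference of -6.34 points. By construction the first choice favours long islands, and the second orders islands by density whatever their length.

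**Figure D5:**
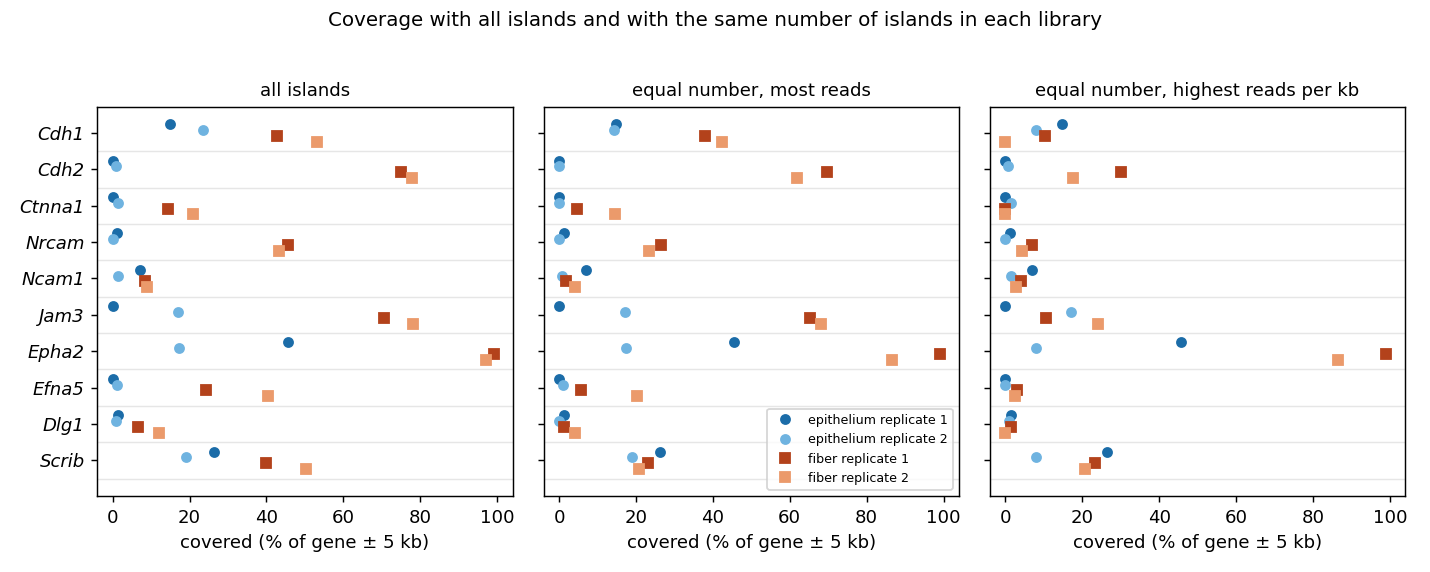
Percent of each gene and its 5 kb flanks covered by islands (horizontal axes) in the 4 libraries, with all islands (left), the 10389 islands of most reads (middle) and the 10389 islands of most reads per kb (right) of each library. Cdh2 and Epha2 keep their squares above their circles in all 3 panels, and Cdh1 does so in the first 2.

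A rank within each library gives another view of the same lists: the percentile of a gene's coverage among all protein-coding genes, with ties at their middle. By rank, 5 of the 10 genes were higher in fibers, Cdh2, Nrcam, Jam3, Epha2 and Efna5, where 34.2% of genes with an island were. Ncam1, Dlg1 and Scrib, 3 of the 10, were higher in epithelium, where 19.5% of such genes were. Cdh2 had a mean percentile of 49.98 in epithelium and 92.9 in fibers, the largest gain, and Ncam1 of 71.0 and 52.4, the largest loss. Cdh1 was at 82.4 and 87.6 in epithelium and 78.7 and 84.7 in fibers, so its place among genes overlapped between the compartments, as did that of Ctnna1. A gene with no island has a percentile of at most 34.8, set by the number of genes without one. Fewer protein-coding genes had an island in epithelium, 30.4% and 35.4%, than in fibers, 54.5% and 60.7%. A single short island therefore gives a high percentile in epithelium. Dlg1 was at 70.6 and 65.3 there with 1 island in each library, covering 1.41% and 0.902%. A higher rank in epithelium at such genes thus need not mean more H3.3.

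A wider group held 67 further genes of adhesion, polarity and ephrin signalling. Of these, 40 were higher in fibers, none was higher in epithelium, 18 overlapped and 9 had no island in any library, so that 69.0% of the 58 with an island were higher in fibers, beside the 69.8% of all such genes given above. The median difference of all 67, with or without an island, was 7.13 points, beside 4.71 points over all protein-coding genes. Among cadherins and catenins 10 of 14 were higher in fibers, among nectins and junction proteins 7 of 14 and among polarity genes 8 of 14. Among Eph receptors it was 5 of 11, among ephrins 5 of 7 and among membrane skeleton genes and E-box repressors 5 of 7. These counts include genes without an island, and 45.0% of all protein-coding genes were higher in fibers. Of genes with an island they were, in the same order, 10 of 14, 7 of 11, 8 of 11, 5 of 10, 5 of 7 and 5 of 5, beside 69.8%.

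The largest differences in the wider group were at ephrin-B genes and at genes of the membrane skeleton. Efnb2, a ligand of EphB receptors, was covered by 14.1% and 10.04% in epithelium and 82.1% and 94.8% in fibers, 76.4 points apart. Efnb3, another such ligand, was covered by 0% and 3.75% in epithelium and 65.2% and 88.8% in fibers. Sptbn1, which encodes a beta spectrin, had no island in epithelium and 64.1% and 79.9% in fibers. Ank2, which encodes ankyrin-B, was covered by 1.63% and 1.43% in epithelium and 61.9% and 66.2% in fibers. None of the 67 was higher in both epithelium libraries, and the lowest difference, -5.20 points at Jup, the gene of plakoglobin, came with overlapping values of 39.7% and 29.9% in epithelium and 33.4% and 25.8% in fibers.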

How the data were processed

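The 4 H3.3 libraries that were analysed are 2 of lens epithelium and 2 of lens fibers. Reads of 75 nt, sequenced from 1 end, had been aligned by the authors to mm10 with BWA, and SICER2 had been run on each library separately (window 200 bp, gap 600 bp, false discovery rate 0.01). Each deposited list holds positions of islands and, as a raw count, the reads in each, not normalized by the authors. Use of the pooled input, removal of duplicates and library totals are not given in the sources used here. Without totals no interval or detection limit was computed, and no count model was fitted. Deeper sequencing can yield more and longer islands, so coverage is compared with equal numbers of islands as well.

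Islands overlapping a gene (GENCODE M21) with 5 kb flanks were measured as covered bp, island length and reads per kb, over all protein-coding genes, in Python 3.11.15 with numpy 2.4.6. Island ends were taken as the last base of the last window. The steps were tested on simulated data and against bedtools 2.31.1. Groups were compared by non-overlap and by exact permutation of libraries. Sequences came from RefSeq GRCm38.p6.

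The members, the wider list of 67 genes and the marker lists were chosen with earlier results of these data known. Of the wider list, the 4 genes with the largest non-overlapping difference in each direction were named. Jup was named after its values were seen. Alternatives changed the flanks, the islands kept, merging, the overlap and the libraries. Ranks within libraries and stretches in both epithelium libraries and no fiber library were added after seeing the data. The bisulfite libraries and pooled input were not analysed here.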

Additional observations from a re-analysis of the deposited data

How the results depend on the processing

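All 10 genes stayed higher in fibers in 9 of 14 alternatives, but most of these could not lower the count. Leaving out a library, or pairing replicates, keeps any gene that was higher in fibers with all 4. Leaving out islands below 600 bp changed no coverage of the 10 genes. The gene body alone, 10 kb flanks and merging within 1 kb could have lowered it. Of protein-coding genes with an island, 62.8%, 71.9% and 69.4% were higher in fibers at these settings. The count was 9 with at least 50% of the island in the window, where Scrib overlapped. It was 8 with islands of at least the median density, where Ctnna1 and Scrib overlapped. Of protein-coding genes with an island, 64.9% and 56.6% were higher in fibers at these settings. The count was 7 with an equal number of islands by reads, 5 by rank within the library and 4 with an equal number by reads per kb. The shares were then 45.2%, 34.2% and 30.0%. None was higher in epithelium in 13 of 14, and 3 were by rank, a setting chosen after seeing the data. Leaving out a library could not bring any of the 10 genes into this count. The count by reads per kb of island was 2, with 3 to 5 on leaving out a library, and 10 when reads were apportioned to the window per kb. The count by island length was 4, with 4 to 9 on leaving out a library, and 2 with an equal number of islands by reads per kb. It was 3 over the gene body alone and 3 with at least 50% of the island in the window. The alternatives of these counts by density and length have no share over all genes beside them, so they are not read as a trait of these genes. The Cdh1 difference was 28.8 points and turned to -6.34 points with an equal number of islands by reads per kb. Cdh1 minus the median of the other 9 genes, -2.99 points, turned to 13.2 points with an equal number of islands by reads, 26.4 points with islands of at least the median density and 0.777 points without epithelium replicate 2, and leaving out a library gave -6.76 to 0.777 points. It was -11.2 points with an equal number by reads per kb and -9.11 points over the gene body alone. The median difference of the other 9 genes kept its direction in 13 of 13 alternatives, but the 31.8 points fell to 12.5 with an equal number of islands by reads, 5.26 with islands of at least the median density and 4.85 with an equal number by reads per kb. The cause of these changes was not tested.

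Replicate numbers are names only, since the labels pair no libraries and the replicate differences of the compartments correlated at r = 0.00635 over 14147 genes. With the replicate block, in which libraries of the same number were paired, the counts were 10, 0, 2 and 4 as without it, and the Cdh1 difference was 28.8 points with an exact p of 0.5, the smallest that this pairing gives. Only 2 libraries per compartment and unknown sequencing depths limit all values.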
